A study of Mus musculus with 4 samples.

Results

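The miR-296 and miR-298 cluster is a pair of neighboring microRNA (miRNA) hairpins beside the imprinted Gnas locus. Its members are 4 of the 1979 mature miRNAs listed for these libraries, namely both arms of each hairpin: mmu-miR-296-5p, mmu-miR-296-3p, mmu-miR-298-5p and mmu-miR-298-3p. They were chosen by name, with their levels, arm ratios and mutant to WT ratios already known, so these values are described here without a test. Small RNA was sequenced from bone marrow-derived macrophages (BMDMs), cells grown from mouse bone marrow for 8 to 9 days with 10 ng/ml of the growth factor M-CSF and then kept for 16 h without LPS. The mice were 6 to 7 months old and of a 129/B6 mix. WT A and WT B came from wild-type cultures, KO was the only library of cultures without mir-146a, and 3′F the only library of homozygous cultures in which the 3′ portion of the miR-146a duplex was swapped between its strands and the seed was kept. By the labels 3 mice were used per genotype, and whether their cells were pooled in a library is not given there. KO and 3′F mice descend from separately targeted embryonic stem cell lines and were bred as separate colonies, so genotype, mouse line and culture cannot be told apart.

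A miRNA hairpin is cut into a short duplex, and each arm of the duplex can be loaded into Argonaute and guide it to mRNAs that pair with the seed, bases 2 to 8. Gnas encodes the alpha subunit of the stimulatory G protein, and its locus holds several transcripts expressed from only 1 parental allele. Nespas is the antisense transcript of that locus, made from the paternal chromosome, and miR-296 and miR-298 are known as paternally expressed miRNAs downstream of it. miR-296 has been studied in embryonic stem cells and endothelial cells, and miR-298 as a repressor of Bace1, the beta-secretase of neurons.

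The 4 mature sequences are shown because no member shares its seed with another and reads of one are not easily taken for another. Capitals mark the seed, and the sequences come from RefSeq on GRCm38.p6.
mmu-miR-296-5p: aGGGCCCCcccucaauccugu
mmu-miR-296-3p: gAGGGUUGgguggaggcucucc
mmu-miR-298-5p: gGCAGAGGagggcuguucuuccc
mmu-miR-298-3p: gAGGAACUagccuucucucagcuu
In the RefSeq table, which held 1679 of the 1979 mature names, 0 other mature miRNAs carried the seed of any of the 4. Between members, the smallest edit distance was 12 bases. The closest other mature miRNA was 8 edits away for miR-296-5p (miR-540-5p), miR-296-3p (miR-149-3p) and miR-298-5p (miR-12195-3p). All 4 members had whole counts in every library, so no read shared out as a fraction was visible on their lines.

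Both hairpins lie on the minus strand of chromosome 2. The miR-296 hairpin (Mir296, ENSMUSG00000065521.1) spans 79 bases at chr2:174267047-174267125, and the miR-298 hairpin (Mir298, ENSMUSG00000065410.1) spans 82 bases at chr2:174267504-174267585. They are 378 bp apart and are shown with both mature arms in capitals.
Mir296: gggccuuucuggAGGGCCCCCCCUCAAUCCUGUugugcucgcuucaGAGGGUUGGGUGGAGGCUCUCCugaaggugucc
Mir298: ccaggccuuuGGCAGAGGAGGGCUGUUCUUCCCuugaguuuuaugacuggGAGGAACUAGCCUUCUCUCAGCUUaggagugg
The folds that RNAfold predicted had free energies of -43.2 kcal/mol (Mir296) and -42.7 kcal/mol (Mir298). In the GENCODE annotation neither hairpin overlaps another gene. Nespas ends 13651 bp away on the same strand, and its annotated start is 27851 bp upstream of the miR-298 hairpin. Gnas begins 16734 bp away on the opposite strand. Within 50 kb, 0 other mature miRNAs of the RefSeq table were found, while GENCODE lists 1 more miRNA gene, Gm27591, 19051 bp away on the plus strand. The mir-146a locus, which was targeted in both mutants, is on another chromosome.

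**Figure D1:**
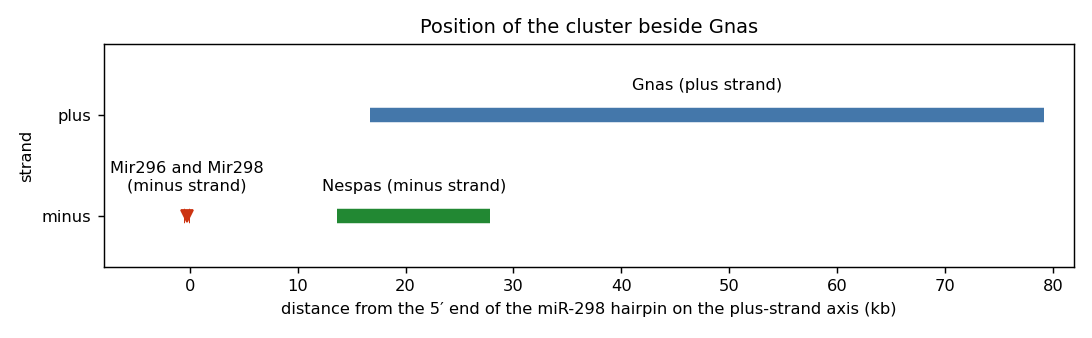
Genes on each strand (vertical axis) by distance in kb from the 5′ end of the miR-298 hairpin (horizontal axis), from the GENCODE annotation of GRCm38. The hairpins (red marker) sit on the minus strand 13651 bp beyond the annotated end of Nespas and outside Gnas.

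Library totals were between 11410940 counts (WT B) and 19087640 counts (KO), and levels are given as RPM, counts scaled to the same library total. miR-146a-5p, the targeted miRNA, was at 5485.09 RPM or more in each WT library, against 13.4 RPM in KO and 6.64 RPM in 3′F. The miRNA made from the 3′F allele was at 10.6 RPM in 3′F and at 0 in the other libraries. The paper warns that ligation bias makes this count a poor measure of its abundance. By qRT-PCR the paper found it at a level like that of wild-type miR-146a in most of the tissues and cells measured. The macrophage and myeloid miRNAs of a fixed list were present, 8 of 8 with a mean over 1 RPM, with miR-223-3p between 1466 and 1636 RPM. The 8 listed embryonic stem cell miRNAs of the miR-290 and miR-302 families were at 0 in all 4 libraries.

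The cluster took few of the counts of resting BMDMs. miR-298-5p, the member with the most counts, was counted 164 times for WT A and 106 times for WT B, against 798 times in KO and 236 times for 3′F. These correspond to levels of 9.61 RPM (95% Wilson interval 8.24 to 11.2) and 9.29 RPM (7.68 to 11.2) for the WT cultures, 41.8 RPM (39.0 to 44.8) for KO and 14.6 RPM (12.8 to 16.6) for 3′F. The WT cultures lay together, 3′F lay above both, and KO lay far above all 3. Among the 1979 miRNAs it ranked 253 by RPM in WT A and 258 in WT B, but 164 in KO, with 3′F between them at 217. Intervals cover counting error only, since reads made by PCR are not independent molecules and cultures differ beyond counting.

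From the other hairpin, the 3p arm had more counts than the 5p arm in every library, which does not give their order in the cell, since ligation efficiency differs between sequences. miR-296-3p had 57 (WT A) and 58 (WT B) counts, against 157 in KO and 110 for 3′F, which correspond in that order to 3.34 RPM (2.58 to 4.32), 5.08 RPM (3.93 to 6.57), 8.23 RPM (7.04 to 9.62) and 6.79 RPM (5.64 to 8.19). The mutants lay above both WT cultures, but the interval of 3′F overlapped that of WT B. miR-296-5p had 15 counts in each WT library, against 101 in KO and 23 for 3′F, which correspond to 0.88 RPM (0.532 to 1.45), 1.31 RPM (0.797 to 2.17), 5.29 RPM (4.36 to 6.43) and 1.42 RPM (0.946 to 2.13). KO stood apart, and the other 3 libraries were not separable at this depth. The WT mean was 9.45 ± 0.226 RPM (SD, n = 2 cultures) for miR-298-5p, 4.21 ± 1.23 RPM for miR-296-3p and 1.09 ± 0.304 RPM for miR-296-5p.

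miR-298-3p was not detected in any of the 4 libraries. A level of 3 counts, the limit that a count of 0 allows, corresponds to 0.176 RPM (WT A), 0.263 RPM (WT B), 0.157 RPM (KO) and 0.185 RPM (3′F). Against the 798 counts of miR-298-5p in KO, this limit is 0.376% of the 5p counts, and it is 1.83% for WT A, 2.83% for WT B and 1.27% for 3′F.

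**Figure D2:**
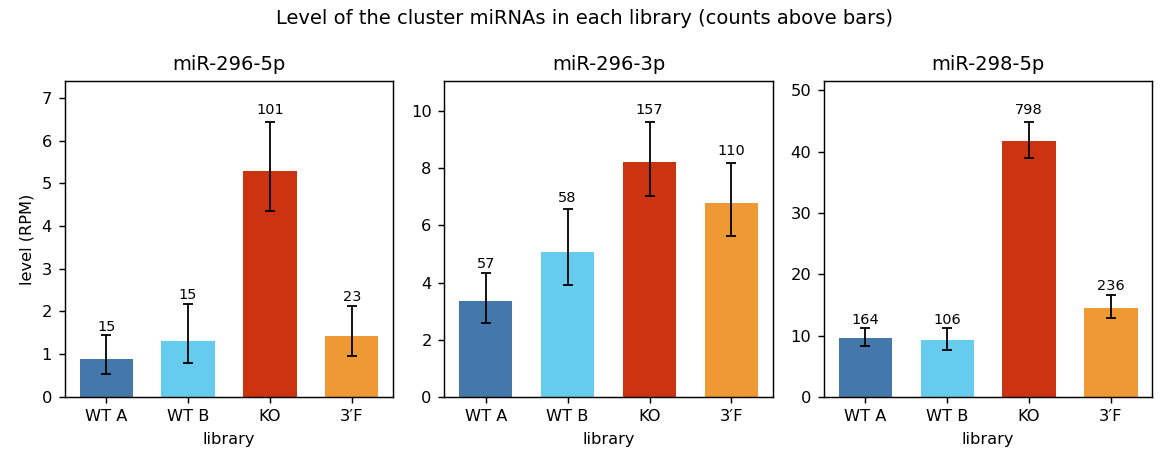
Level in RPM (vertical axis, from 0, with its own scale for each miRNA) of the 3 detected members in each library (horizontal axis). Bars are single libraries, error bars are 95% Wilson intervals of counting error, and the number above a bar is its count; KO is the highest library for each miRNA, with 798 counts of miR-298-5p.

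The KO library was compared with WT to see how the cluster stood in cells without miR-146a. Both 5p arms were several-fold higher in KO. miR-298-5p was 4.35-fold its level in WT A (95% exact interval 3.67 to 5.18) and 4.5-fold that in WT B (3.67 to 5.56), whereas WT B was 0.967-fold WT A (0.750 to 1.24). miR-296-5p was 6.01-fold its level in WT A (3.48 to 11.2) and 4.04-fold that in WT B (2.33 to 7.46), with WT B at 1.49-fold WT A (0.682 to 3.28). Against the WT mean the ratios were 4.42 and 4.83, and against the summed WT counts 4.41 (3.84 to 5.08) and 5.02 (3.31 to 7.83). For both, even the lower bounds against each WT library were over 2-fold.

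miR-296-3p was higher in KO by less. It was 2.46-fold its level in WT A (1.81 to 3.4) and 1.62-fold that in WT B (1.19 to 2.23), and 1.95-fold the WT mean. The WT cultures themselves differed 1.52-fold (1.04 to 2.23) for this arm, so the size of the KO ratio depends on which WT culture is taken. The 3 detected members together reached 13.8 RPM (WT A), 15.7 RPM (WT B), 55.3 RPM (KO) and 22.8 RPM (3′F), and KO was 3.75-fold the WT mean of this sum.

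A miRNA was called higher where its level was no less than 2 times that of each WT library, and called lower likewise. With a minimum mean of 1 RPM across the libraries, 12 of 439 miRNAs (2.73%) were called higher in KO, and these included miR-298-5p and miR-296-5p but not miR-296-3p. With a minimum of 10 RPM the count was 5 of 251 (1.99%). Of the members, miR-298-5p alone passed that minimum, at 18.8 RPM on average, and its levels outside KO were 9.29 to 14.6 RPM. miR-298-3p passed neither. The WT mean of each of the 3 detected members was itself over 1 RPM, with miR-296-5p, at 1.09 RPM, just inside. In the order of KO to WT ratios over the 439 miRNAs, miR-296-5p had rank 2, after miR-1948-5p, and miR-298-5p rank 3, ahead of miR-125b-1-3p at 3.36. The ratio of miR-1948-5p rests on a WT A count of 0, which was set to 3 counts. miR-296-3p had rank 16. Since the members were known for these values, the ranks are a description.

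KO exceeded both WT libraries by any amount for 34.6% of the 439 miRNAs, and all 3 detected members were among them. The spread between WT cultures gives a scale for single miRNAs of the same level. Of the 439 miRNAs, 15 (3.42%) differed at least 2-fold between WT A and WT B. Among the 81 other miRNAs within 2-fold of the WT mean of miR-298-5p, WT A and WT B differed by a median of 1.11-fold (95th percentile 1.65, maximum 4.08), and 0 had a KO to WT ratio as high. Among the 161 around the level of miR-296-5p the median was 1.41-fold (95th percentile 2.63, maximum 9.50), and 1 had a KO to WT ratio as high. That 1, miR-1948-5p, also gave the maximum. Both of its values rest on a WT A count of 0, set to 3 counts, beside 19 counts in WT B. Among the 89 around miR-296-3p it was 1.19-fold (95th percentile 2.01, maximum 4.52), and 3 had a ratio as high. The KO ratio of miR-296-3p, 1.95, was thus within the upper range of WT differences at its level, and that of miR-296-5p was over the 95th percentile but under the maximum.

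miRNAs of other cell types were counted beside these ratios. The summed level of 5 erythroid miRNAs was 170.6 RPM (WT A) and 160.4 RPM (WT B) against 70.5 RPM in KO and 80.7 RPM for 3′F. Of the 3 that passed 1 RPM, 1 (miR-451a) was called lower in each mutant. Over all 439 miRNAs, 15 were called lower in KO and 3 in 3′F. The median ratio of the 3 erythroid miRNAs to the WT mean was 0.470 in KO and 0.511 for 3′F, beside 0.990 and 0.940 over all 439 miRNAs. miR-486a-5p and miR-486b-5p, 2 of the 3, had near-equal levels (32.3 and 33.8 RPM in KO). Their counts held fractions of shared reads in WT B and 3′F, so they may not be independent values. For 2 endothelial miRNAs (miR-126a arms) the sum was 11.1 and 10.2 RPM in WT, 14.0 in KO and 11.1 in 3′F. The sum of 6 stromal miRNAs was 19.9 and 21.2 RPM in WT, 18.2 in KO and 18.8 in 3′F, with miR-143-3p called lower in both mutants. For 4 lymphocyte miRNAs it was 484 and 559 RPM in WT, 576 in KO and 448 in 3′F. Nearly all of this sum was miR-181a-5p and miR-181b-5p, at 303 and 271 RPM in KO. miR-150-5p was at 2.93 RPM (WT A), 2.8 RPM (WT B), 2.51 RPM (KO) and 1.54 RPM (3′F), and miR-150-3p was at most 0.06 RPM. The 6 neural miRNAs summed to 6.52 and 7.95 RPM in WT, 4.96 in KO and 5.50 in 3′F, with miR-124-3p and miR-137-3p at 0 throughout. None of the tested miRNAs of these lists was called higher in KO. The part of cell content in the cluster's ratios was not tested, and in these bulk cultures more cells of a type and more RNA per cell cannot be told apart.

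The 3′F library was compared with WT in the same way, to see whether the allele that keeps the seed gave a like pattern. All 3 detected members were above both WT libraries, as were 26.2% of the 439 miRNAs. miR-298-5p was 1.52-fold WT A (1.24 to 1.86) and 1.57-fold WT B (1.24 to 1.99). miR-296-3p was 2.03-fold WT A (1.46 to 2.85) and 1.34-fold WT B (0.964 to 1.87), against a difference of 1.52-fold between the WT cultures. miR-296-5p was 1.61-fold WT A (0.808 to 3.33) and 1.08-fold WT B (0.540 to 2.23). Only for miR-298-5p did the intervals against both WT libraries exclude 1. None of the members was called 2-fold higher in 3′F, where 2 of 439 (0.456%) were, one of which is the 3′F miRNA itself.

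KO was set against 3′F directly, a comparison that uses no WT library. miR-296-5p was 3.73-fold higher in KO (2.35 to 6.14) and miR-298-5p 2.87-fold higher (2.48 to 3.33). For miR-296-3p the ratio was 1.21 (0.943 to 1.56), which was not separable from 1 at this depth. At least 2-fold higher in KO than in 3′F were 14 of 439 miRNAs (3.19%), both 5p arms among them. Each comparison here has 1 library on at least 1 side, so it has no replicate check.

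**Figure D3:**
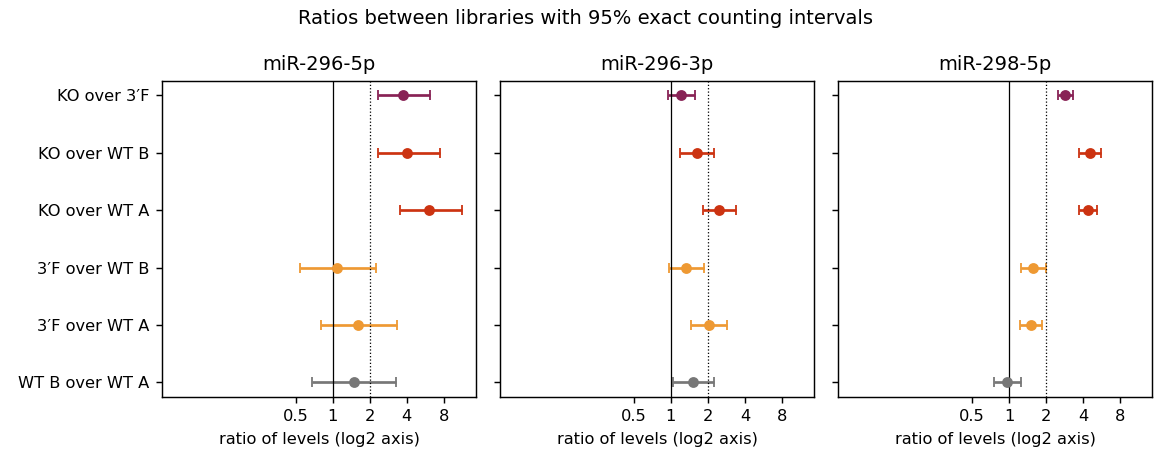
Ratio of levels between the libraries named on the vertical axis, on a log2 horizontal axis, for the 3 detected members. Points are ratios of counts per library total and bars are 95% exact counting intervals; the solid line marks 1 and the dotted line 2, and the KO intervals of both 5p arms lie wholly to the right of 2, whereas those of miR-296-3p do not.

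The arms of the miR-296 hairpin had other proportions in the KO library than in the rest. miR-296-5p made up 20.8% of the counts of its hairpin in WT A (95% exact interval 12.2 to 32.0), 20.5% in WT B (12 to 31.6) and 17.3% in 3′F (11.3 to 24.8). In KO it made up 39.1% (33.2 to 45.4). The KO interval did not overlap that of any other library, and the WT cultures differed by less than 1 percentage point. The 5p to 3p ratio was 0.263 (WT A), 0.259 (WT B), 0.643 (KO) and 0.209 (3′F), so that KO was 2.47-fold the geometric mean of the WT cultures. At 15 counts of the 5p arm in each WT library, the WT shares are known only to about 10 percentage points on either side.

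Of 145 hairpins with at least 20 counts of each arm over the 4 libraries, 14 (9.66%) had a 5p to 3p ratio at least 1.5-fold higher in KO than in both WT libraries, the miR-296 hairpin among them, with rank 7 by size. By the same limit 14 hairpins were lower in KO. Over the 145 hairpins the ratio in KO differed from the geometric mean of WT by a median of 1.28-fold in either direction. Between WT A and WT B the median difference was 1.23-fold. In 3′F 8 hairpins (5.52%) were higher by this limit and 7 were lower, and the miR-296 hairpin was in neither set. Of the 6 hairpins ahead of it in KO, mir-182, mir-504, mir-1b, mir-7012 and mir-3076 had an arm with at most 13 counts in every library, and mir-34c had 4 counts of its 3p arm in KO. With at least 100 counts of each arm, 5 of 105 hairpins were higher in KO by this limit and 10 were lower. The miR-296 hairpin was among the 5, but it passed this minimum only through KO. Its 5p arm had 101 counts there, against 15 (WT A), 15 (WT B) and 23 (3′F). The miR-298 hairpin had no detected 3p arm and could not be compared.

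The members were also set against each other within a library. Per count of miR-298-5p there were 0.0915 counts of miR-296-5p in WT A (0.050 to 0.155), 0.142 in WT B (0.0765 to 0.244), 0.127 in KO (0.102 to 0.156) and 0.0975 for 3′F (0.0606 to 0.150), with intervals that all overlap. With 15 counts of miR-296-5p in each WT library, only a large difference in this proportion would be separable at this depth. For miR-296-3p the figure was 0.348 in WT A (0.252 to 0.472), 0.547 in WT B (0.390 to 0.761), 0.466 in 3′F (0.368 to 0.587) and 0.197 in KO (0.165 to 0.234), where the KO interval lay below the other 3. The 3p arm of miR-296 was thus higher in KO by a smaller factor than miR-298-5p.

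**Figure D4:**
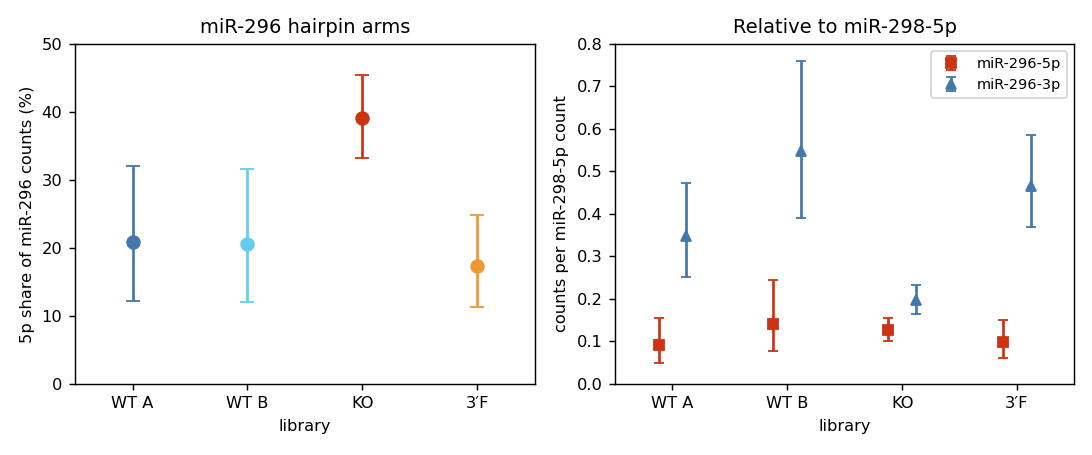
Left, share of miR-296 hairpin counts from the 5p arm (vertical axis, percent) in each library, and right, counts of each miR-296 arm per count of miR-298-5p. Points are single libraries with 95% exact intervals; the 5p share is 39.1% in KO and between 17.3% and 20.8% elsewhere, and miR-296-3p per miR-298-5p is lowest in KO, at 0.197.

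Other imprinted miRNAs were counted from fixed lists. Of 96 mature miRNAs of the Dlk1-Dio3 domain, a maternally expressed imprinted cluster, 89 were at 0 in all 4 libraries and 0 reached a mean of 1 RPM. Their summed level was at most 0.27 RPM in any library and 0 in KO. Of 6 arms from the imprinted H19, Igf2 and Mest genes (miR-675, miR-483 and miR-335), 4 were at 0 throughout and 0 reached 1 RPM. The miR-296 and miR-298 cluster was therefore detected where the miRNAs of these lists were at or near 0, with 3 of 4 members over 1 RPM. The lists do not cover all imprinted miRNAs, so they do not show that detection is particular to this cluster.

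Outside the cluster, the miRNAs whose pattern over the 4 libraries was most like that of miR-298-5p, by the Euclidean distance between log2(RPM + 1) values centered on the WT mean, were miR-125b-1-3p (distance 0.516), miR-139-3p (0.792) and miR-146b-3p (0.840). miR-125b-1-3p, the passenger arm of a miR-125b hairpin, was at 4.8 RPM (WT A), 3.94 RPM (WT B), 14.7 RPM (KO) and 6.36 RPM (3′F). miR-139-3p was at 24.4, 27.6, 76.1 and 25.9 RPM in the same order, and miR-146b-3p at 2.40, 3.33, 8.96 and 3.21 RPM. Within the cluster, miR-296-5p was at a distance of 0.618, between the nearest and the next of these, and miR-296-3p at 1.25. The measure rests on 4 libraries and on a scale that understates the changes of low miRNAs.

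**Figure D5:**
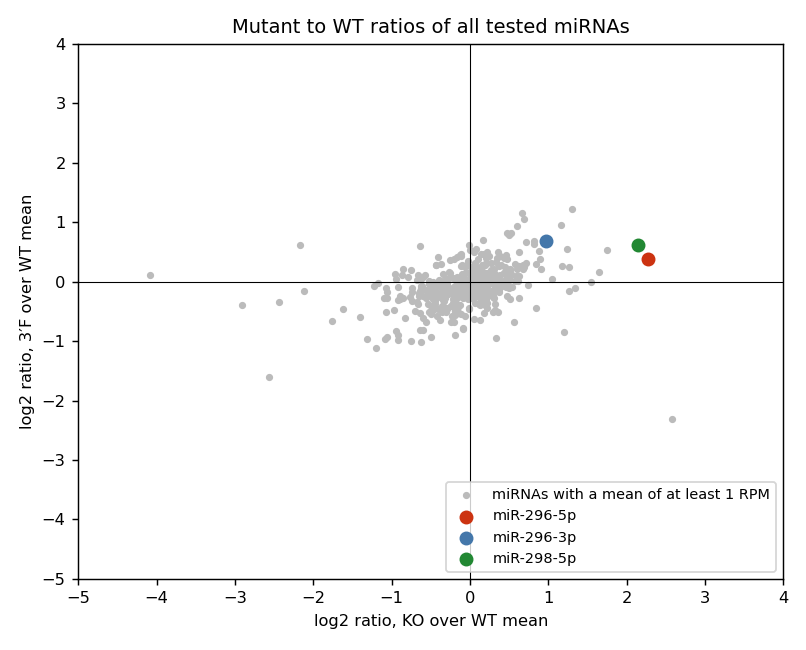
Log2 ratio to the WT mean in KO (horizontal axis) and in 3′F (vertical axis) for miRNAs with a mean of at least 1 RPM. Each point is a miRNA, with 437 drawn and 2 (miR-146a-5p and the 3′F miRNA) outside the axes; miR-298-5p (2.15 in KO, 0.62 in 3′F) and miR-296-5p (2.27, 0.37) sit at the right with miR-1948-5p beyond them, and miR-296-3p (0.97, 0.69) lies nearer to the other miRNAs. Both ratios share the WT libraries.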

How the data were processed

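The authors deposited, for each mature miRNA and precursor, estimated counts (reads fitting several lines shared out as fractions) and RPM, each count scaled to its library's total over all 2129 lines. Adapters were removed with cutadapt 1.8.3 per the submitters' processing notes, inserts of about 18 to 35 bp were size selected per the labels, and the aligner, counter, genome build and miRNA release are not given in the sources used here. Ligation efficiency differs between sequences, so ratios were taken between libraries, and orders, shares and ratios between miRNAs of 1 library are of sequenced counts, not of molecules in the cell.

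Of several lines for a mature miRNA, that with the highest summed count was used. Ratios are plain RPM ratios with no pseudocount, and a value of 0 was set to 3 counts. Levels have 95% Wilson intervals, and ratios and shares exact (Clopper-Pearson) ones. KO and 3′F have 1 library each, so no p-value was computed. Members and lists were chosen with earlier results of these data known. Named miRNAs are the members, the non-members with the most similar pattern, neighbors in rank and the listed sets, while hairpins with larger arm shifts were picked once their values were known. The functions were tested on simulated data. The alternatives were other scalings (1 line per miRNA, edgeR 4.0.16 TMM, DESeq2 1.42.0 size factors on rounded counts, totals without miR-21a-5p), pseudocounts, minimums, thresholds and each WT library left out. Positions and sequences are from GENCODE vM21 and RefSeq on GRCm38, with RNAfold 2.7.2 for folding, Python 3.11.15 and R 4.3.3.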

Additional observations from a re-analysis of the deposited data

How the results depend on the processing

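No paired analysis was possible because each mutant has a single library. Over the other scalings, the pseudocounts and each WT library left out, the KO to WT ratio of the summed members was between 3.53 and 4.0, that of miR-298-5p between 4.10 and 4.56, that of miR-296-5p between 3.00 (pseudocount of 1 RPM) and 6.01 (without WT B), and that of miR-296-3p between 1.62 and 2.46. No ratio reversed. In 3′F the sum was between 1.45 and 1.65. Without WT B, miR-296-3p was called 2-fold higher in KO and in 3′F.

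The number of miRNAs called higher in KO, 12 of 439, became 5 of 251 with a minimum mean of 10 RPM. With a minimum of 10 counts it was 28 of 735, and of the 439 it was 32 at 1.5-fold and 4 at 3-fold. It was 18 or 20 when 1 WT library was dropped. miR-298-5p was called under all 13 alternatives, and miR-296-5p under all but the minimum of 10 RPM, which it did not pass. In 3′F the number, 2, became 0 with 10 RPM, 1 with 1 RPM in WT, 19 with 10 counts, 9 at 1.5-fold (miR-298-5p among them), 1 at 3-fold, 4 without miR-21a-5p in the totals and 1 with a pseudocount of 1 RPM. It was 9 or 10 when 1 WT library was dropped. Hairpins with a higher 5p to 3p ratio in KO were 14 of 145. They became 5 of 113 with 50 counts per arm and 5 of 105 with 100 counts. Of the 145 they became 5 at 2-fold, and 21 or 23 when 1 WT library was dropped. The miR-296 hairpin was among them each time. With 100 counts per arm it was included only through the KO counts of its 5p arm. In 3′F the 8 of 145 hairpins became 1 of 113 with 50 counts and 0 of 105 with 100 counts. Of the 145 they became 4 at 2-fold, and 14 or 17 when 1 WT library was dropped. The cause of these changes was not tested. The depth of WT limits miR-296-5p most, at 15 counts in each library.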

Other observations

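The detected members are rich in G and C. GC content was 66.7% for miR-296-5p, 68.2% for miR-296-3p and 65.2% for miR-298-5p, and among the 388 tested miRNAs with a RefSeq sequence 18, 11 and 23 had a GC content at least as high, the members included. Over the 64 tested miRNAs with at least 60% GC the median KO to WT ratio was 0.981, against 1.01 for the 324 with less, and 3 of the 64 (4.69%), the 2 5p members among them, were called higher in KO against 8 of the 324 (2.47%). The detected members are themselves among the 64 and were chosen with their ratios known, so these shares are no independent background for them. The part of base composition in the ratios was not tested.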
